A study of Mus musculus with 18 samples.

Results

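The genes described are 7 members of the kallikrein-related and plasminogen protease systems, Klk6, Klk8, Klk10, Plau, Plat, Plaur and Serpine2, out of 51290 genes in a mouse gene-level count table. They were taken by symbol, as a set chosen by the measured level of Klk8, which was much higher in plexiform neurofibroma than in normal nerve. All 7 were in the table, and 6 passed the filter on low counts in each comparison; Klk10 passed in none. The values of neurofibroma against nerve chose the set, so for its members they are given as a description with no test, and so is Klk8 in every comparison.

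Kallikrein-related peptidases are secreted trypsin-like or chymotrypsin-like serine proteases whose genes lie side by side in one cluster. Klk8, also called neuropsin, and Klk6, also called neurosin or myelencephalon-specific protease, are best known from the nervous system, where KLK8 cleaves adhesion proteins and KLK6 cleaves myelin proteins and protease-activated receptors; Klk6 is most abundant in oligodendrocytes. In the plasminogen system the urokinase-type activator (Plau) and the tissue-type activator (Plat) cleave plasminogen to plasmin, which degrades fibrin and matrix. Plaur is the cell-surface receptor that holds urokinase, and Serpine2, also called protease nexin 1, is a serpin that inhibits urokinase, tissue-type activator and thrombin and is made by glia.

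Poly(A) RNA was sequenced from 18 mouse samples in 3 groups of 6. The MPNST (malignant peripheral nerve sheath tumours) arose in PostnCre+ mice that were both Arf flox/flox and Nf1 flox/flox, the plexiform neurofibromas were trigeminal nerves of Nf1 flox/flox PostnCre+ mice, and the normal nerves were trigeminal nerves of Nf1 flox/flox PostnCre- mice. All groups thus carried floxed Nf1, and Cre was driven by the Postn promoter, so that only cells with Postn activity and their progeny could recombine. Arf is a product of the Cdkn2a locus. The labels give no body site for the MPNST and no ages, they name 6 mice for the 6 MPNST, and they take the neurofibromas and nerves from an earlier series. Body site, series and malignancy therefore cannot be told apart in the MPNST comparisons, and the p-values measure the spread between these samples.

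The MPNST libraries held 13886399 to 23652959 counts, the neurofibroma libraries 15307987 to 20056513 and the nerve libraries 14303986 to 20335697. Levels are given as TMM-scaled CPM, counts set to a common library size. No gene is compared with another by level because the values are not scaled by length. The TMM factor was 0.406 in MPNST library 2 and 0.960 to 1.14 in every other library. Levels of MPNST library 2 are therefore well above its CPM before this scaling. Nf1 was at 41.3 to 111 CPM in MPNST, 64.5 to 86.5 CPM in neurofibroma and 79.0 to 158 CPM in nerve, so the groups overlapped. Cdkn2a was at 0.284 to 605 CPM in MPNST, with only MPNST library 4 above 10.2 CPM, at 3.44 to 8.38 CPM in neurofibroma and at 0.274 to 2.85 CPM in nerve; the gene count adds all products of the locus and does not check the loss of Arf. Several MPNST libraries stood apart by transcripts of other tissues. Salivary gland genes held 42.5% of the counts of MPNST library 2, skeletal muscle genes 5.13% of library 3, and library 6 had summed levels of 3464 CPM for 8 pancreatic acinar genes and 3617 CPM for 8 sympathoadrenal genes. The summed level of 8 Schwann cell markers was 58.4 to 1172 CPM in MPNST, 5906 to 10350 CPM in neurofibroma and 2537 to 5993 CPM in nerve, with all 8 detected in each group. In bulk tissue, fewer cells of a type and less RNA per cell cannot be told apart.

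The promoter windows of the kallikrein genes and of Plaur are shown because Klk8 and Klk10 rank alike over the libraries while Klk6 and Plaur follow other patterns. Each is the 250 bases before the annotated start from RefSeq on GRCm38.p6, which is not the build of the submitters' processing, and 5 of the 7 members had a window; Plau and Plat had none. Klk8 is at chr7:43797327-43797576, Klk10 at chr7:43780804-43781053, the 2 windows of Klk6 at chr7:43824294-43824543 and chr7:43825200-43825449, and Plaur at chr7:24462233-24462482, all on the plus strand. Capitals mark matches to AP-1 (TGANTCA), to the TEAD motif (GGAATG) or to the TATA box (TATAAA), searched on both strands.
Klk8: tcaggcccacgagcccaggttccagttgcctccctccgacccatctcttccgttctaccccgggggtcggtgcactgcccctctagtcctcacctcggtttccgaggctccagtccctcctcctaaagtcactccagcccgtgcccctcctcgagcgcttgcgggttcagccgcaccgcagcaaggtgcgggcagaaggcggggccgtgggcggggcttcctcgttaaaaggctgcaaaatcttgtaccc
Klk10: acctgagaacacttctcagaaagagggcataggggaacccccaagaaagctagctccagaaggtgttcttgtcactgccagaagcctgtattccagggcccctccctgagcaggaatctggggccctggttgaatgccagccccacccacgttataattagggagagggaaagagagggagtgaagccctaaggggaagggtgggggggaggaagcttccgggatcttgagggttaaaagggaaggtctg
Klk6, first start: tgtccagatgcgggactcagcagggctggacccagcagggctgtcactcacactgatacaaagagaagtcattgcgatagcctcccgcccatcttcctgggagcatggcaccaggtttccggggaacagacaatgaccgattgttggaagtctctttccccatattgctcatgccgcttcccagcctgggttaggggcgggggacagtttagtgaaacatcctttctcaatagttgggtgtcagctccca
Klk6, second start: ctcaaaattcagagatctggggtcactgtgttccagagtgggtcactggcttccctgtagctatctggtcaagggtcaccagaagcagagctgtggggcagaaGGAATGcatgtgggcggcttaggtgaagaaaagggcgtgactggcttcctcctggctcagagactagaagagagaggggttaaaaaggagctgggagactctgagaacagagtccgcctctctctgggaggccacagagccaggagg
Plaur: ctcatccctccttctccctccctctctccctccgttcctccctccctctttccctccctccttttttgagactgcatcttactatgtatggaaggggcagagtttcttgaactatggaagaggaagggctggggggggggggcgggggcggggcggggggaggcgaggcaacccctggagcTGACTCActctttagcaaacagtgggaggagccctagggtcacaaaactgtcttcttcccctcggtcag
The Plaur window held 1 AP-1 match, TGACTCA, 69 bases before the start, a motif that 6.75% of 32851 windows of this length held. The second Klk6 window held 1 TEAD match 147 bases before the start, against 12.6% of all windows. The Klk8 window had 65.2% G and C and held 1 match to the GC box (GGGCGG), which 32.7% of windows held, and 1 to the E-box (CANNTG), which 66.2% held, and the Klk10 window held no match to any of the 5 motifs. These are matches of letters and not sites of binding.

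**Figure D1:**
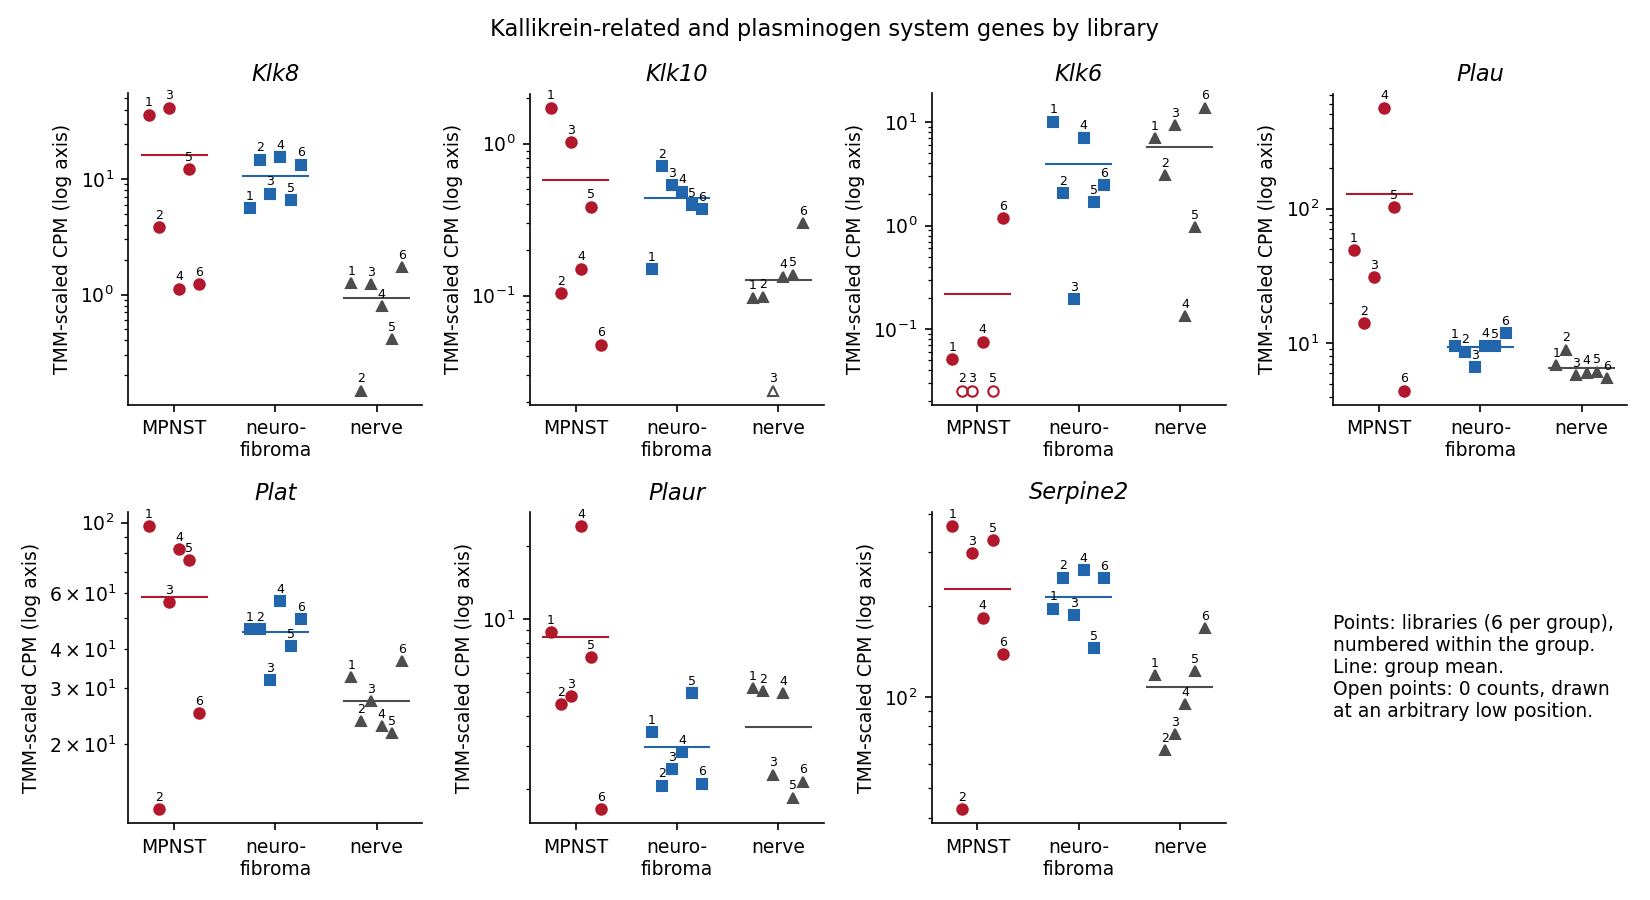
Level of each member in every library (points, TMM-scaled CPM, log axis; numbers are library numbers within a group, lines are group means, open points are 0 counts drawn at an arbitrary low position). Klk8 separates all 6 neurofibromas from all 6 nerves, Klk6 is at or near 0 in 5 of 6 MPNST, and MPNST library 4 is highest for Plau and Plaur.

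Klk8 was higher in neurofibroma than in nerve, the difference for which the set was chosen. It lay between 5.62 and 15.5 CPM in neurofibroma (median 10.4) and between 0.147 and 1.73 CPM in nerve (median 1.01). Every neurofibroma was above every nerve, a separation that 4.69% of the 16464 genes tested showed in that direction. The fitted log2 difference was 3.47 ± 0.49 (SE), an 11.1-fold higher level, and it ran from 3.23 to 3.76 when each library was left out in turn. Among the neurofibromas, libraries 2, 4 and 6 held 13.4 to 15.5 CPM of Klk8 and libraries 1, 3 and 5 held 5.62 to 7.47 CPM.

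The MPNST spread far more widely for Klk8 than either trigeminal group. Libraries 1, 3 and 5 held 36.2, 41.6 and 12.1 CPM, library 2 held 3.85 CPM, and libraries 4 and 6 held 1.13 and 1.23 CPM, against a median of 10.4 CPM in neurofibroma. The first 2 of these were above all neurofibromas, and libraries 4 and 6 were within the range of the nerves. The place of library 2 rested on its TMM factor of 0.406. Before TMM scaling it was at 1.56 CPM (37 counts), inside the nerve range of 0.148 to 1.90 CPM. The group mean was 16 ± 18.3 CPM in MPNST, 10.5 ± 4.46 CPM in neurofibroma and 0.929 ± 0.589 CPM in nerve (SD, n = 6 each). The fitted log2 differences, again as a description, were 0.75 ± 0.82 for MPNST over neurofibroma and 4.23 ± 1.01 for MPNST over nerve. Without MPNST library 3 they were 0.13 and 3.60, and limma-voom put them at -0.61 and 3.04. In order of level, MPNST and neurofibroma were not apart beyond their spread. Nerve was lowest, with MPNST libraries 4 and 6 inside its range, and library 2 as well before TMM scaling.

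Within the MPNST, Klk8 went along with the Schwann cell markers. Their summed level was 1172, 875 and 776 CPM in libraries 1, 3 and 5, where Klk8 was highest, 373 CPM in library 2, and 58.4 and 132 CPM in libraries 4 and 6, where Klk8 was lowest. The gap of library 2 to library 6 rested on the TMM factor of library 2. Before TMM scaling the markers held 0.0151% of counts in library 2 and 0.0145% in library 6. Across groups the picture was mixed. Neurofibroma was above nerve for both, with median marker sums of 8109 and 3979 CPM. Of the 8 markers 6 were called higher there, where 13.9% of all genes were called in either direction. Of the 16464 genes tested, 1307 were called higher. The sum was highest in neurofibroma libraries 2 and 4, where Klk8 was high, and lowest in nerve library 2, where Klk8 was lowest. Neurofibroma library 1, lowest for Klk8, was at 8142 CPM, above library 6 at 8075 CPM. All nerves had 2537 CPM or more of the markers but at most 1.73 CPM of Klk8. The highest Klk8 values were in MPNST libraries with far lower Schwann cell markers than any nerve. The summed fibroblast markers also moved with Klk8. Single markers differed. In MPNST the largest means were those of Col3a1 and Col1a1, at 2120 and 1999 CPM. In neurofibroma the largest was that of Dcn, at 1079 CPM, beside 936 CPM in MPNST. The summed level of the 8 fibroblast markers was 703 to 10826 CPM in MPNST, 1183 to 2660 CPM in neurofibroma and 166 to 1050 CPM in nerve. Every neurofibroma was thus above every nerve for this sum. It was highest in MPNST libraries 1 and 3, at 10826 and 8410 CPM, and in neurofibroma libraries 2, 4 and 6, at 2057 to 2660 CPM, where Klk8 was highest in its group, and lowest in nerve library 2, where Klk8 was lowest. MPNST library 4 went against this, with 6011 CPM of fibroblast markers and 1.13 CPM of Klk8. The part of Schwann cells and fibroblasts in the Klk8 values was not tested.

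**Figure D2:**
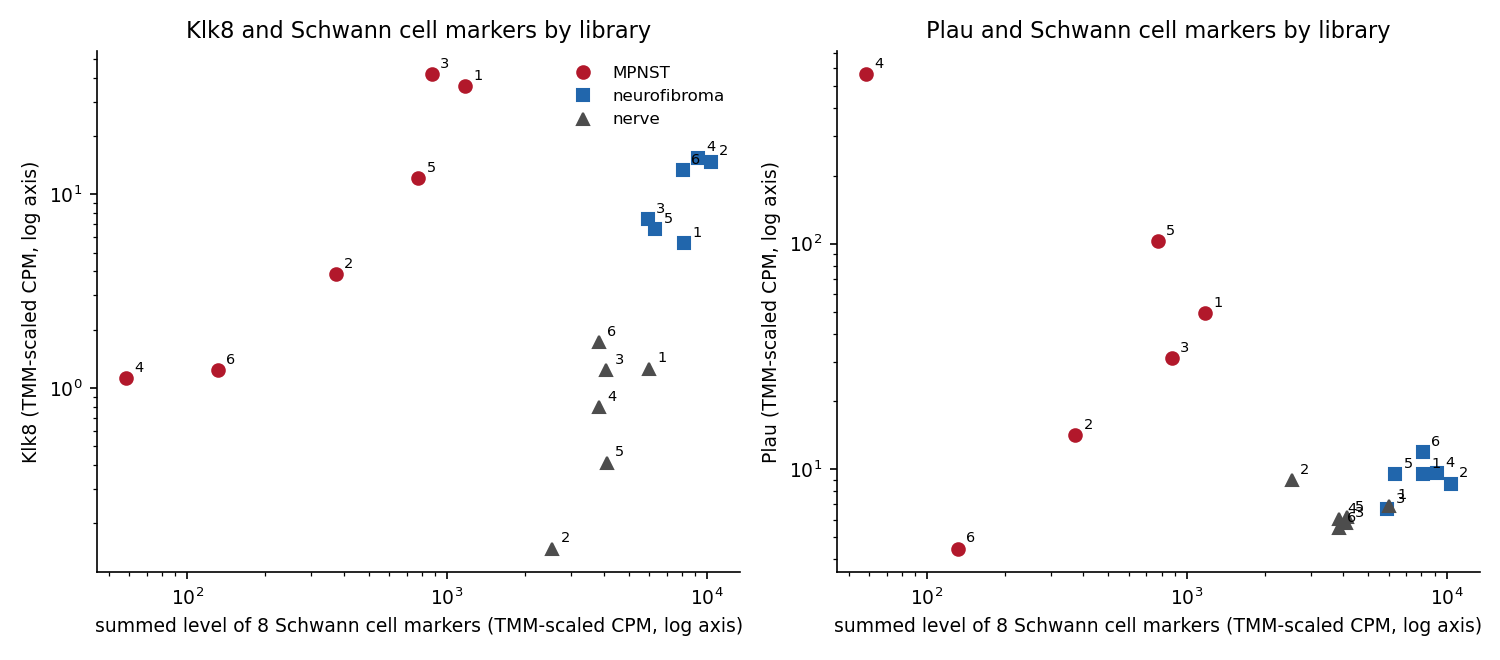
Klk8 (left) and Plau (right) against the summed level of 8 Schwann cell markers in every library (TMM-scaled CPM, log axes; numbers are library numbers within a group). Among the MPNST, Klk8 is highest in libraries 1 and 3, which also have the most Schwann cell markers, while Plau is highest in library 4, which has the least at 58.4 CPM.

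Klk10, a secreted family member expressed in epithelia, was scarce in every group. It lay between 0.0474 and 1.72 CPM in MPNST (median 0.267), between 0.149 and 0.708 CPM in neurofibroma (median 0.439) and between 0 and 0.298 CPM in nerve (median 0.116), which corresponds to 1 to 34, 3 to 13 and 0 to 5 counts. The 2 highest MPNST were libraries 1 and 3, as for Klk8, and the groups overlapped. Klk10 did not pass the filter on low counts and was not tested in the main fits. A fit without the filter gave log2 differences of 0.38 ± 0.76 for MPNST over neurofibroma (adjusted p = 0.721, edgeR quasi-likelihood test with Benjamini-Hochberg adjustment) and 2.09 ± 0.91 for MPNST over nerve (adjusted p = 0.109), and 1.75 ± 0.57 for neurofibroma over nerve as a description. At this depth, 1 count was worth a large share of the level, so smaller differences of Klk10 were not detectable.

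Genes next to Klk8 in the cluster moved along with it in part; along chromosome 7 the order is Klk14, Klk13, Klk12, Klk11, Klk10, Klk9, Klk8, Klk7, Klk6, Klk5. Klk9, which lies between Klk10 and Klk8, was the gene whose pattern was most like that of Klk10 (Pearson r = 0.866 over 18 libraries), and Klk8 came next at 0.860. Klk9 was at 18.7 and 11.6 CPM in MPNST libraries 1 and 3 and at most 1.53 CPM in the other 4 MPNST, against 0.0994 to 0.743 CPM in neurofibroma and 0 to 0.238 CPM in nerve. Klk7 and Klk5, chosen after their values were seen, lie on the other side of Klk8. Klk7 stayed at or under 0.585 CPM in all libraries, and its highest values were in MPNST libraries 3 and 1, at 0.585 and 0.456 CPM, which are 8 and 9 counts. Klk5 had 0 counts in all 6 MPNST and averaged 0.632 ± 0.491 CPM in neurofibroma and 1.37 ± 0.846 CPM in nerve (SD, n = 6 each). So the high kallikrein values of MPNST libraries 1 and 3 were seen in Klk8, Klk9 and Klk10, at a few counts in Klk7, and not in Klk5. The gene 2310002F09Rik, also chosen after its values were seen, is annotated on the opposite strand across Klk8, Klk9, Klk10 and Klk13. It was at 9.68, 5.71 and 4.98 CPM in MPNST libraries 1, 3 and 5 and at most 0.416 CPM in the other 3, at 1.52 to 7.47 CPM in neurofibroma and at 0.344 to 0.676 CPM in nerve. The libraries were stranded, but the strand setting of the counting is not given in the sources used here, so reads of these overlapping genes may be split between them.

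Klk6 was at or near 0 in 5 of the 6 MPNST. It lay between 0 and 1.18 CPM in MPNST (median 0.0254), between 0.194 and 10.1 CPM in neurofibroma (median 2.27) and between 0.133 and 13.8 CPM in nerve (median 5.03). Libraries 2, 3 and 5 of the MPNST had 0 counts, libraries 1 and 4 had 1 and 2, and library 6 had 25, so that library 6 alone made the MPNST overlap the lower neurofibromas and nerves. Klk6 passed the filter on low counts largely through the groups where it was high. It had 4 to 203 counts in neurofibroma and 2 to 232 in nerve. The filter thus largely set the direction of both changes, and nothing is concluded from the calls. The fitted log2 change of Klk6 in MPNST was -3.97 ± 1.19 against neurofibroma (adjusted p = 0.0187, edgeR quasi-likelihood test). Against nerve it was -4.55 ± 1.30 (adjusted p = 0.0133, same test). Without MPNST library 6 the log2 differences were -6.52 (adjusted p = 0.000577) and -7.09 (adjusted p = 0.000667). Neurofibroma and nerve overlapped over nearly their whole ranges, with means of 3.93 ± 3.81 and 5.73 ± 5.32 CPM (SD, n = 6 each) and a log2 difference of -0.58 ± 0.88 as a description.

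The wide spread of Klk6 within the trigeminal groups went with markers of central glia. The summed level of 8 oligodendrocyte and astrocyte markers was 2.14 to 77.9 CPM in MPNST, 109 to 913 CPM in neurofibroma and 89.9 to 1477 CPM in nerve, with all 8 detected in each group. Klk6 was highest in nerve library 6 and neurofibroma library 1, where those markers were highest in their groups, and lowest in nerve library 4 and neurofibroma library 3, where they were lowest. The 3 genes most like Klk6 over the 18 libraries were Ermn (Pearson r = 0.961), Sall1 (0.947) and Mog (0.941); Mog, a central myelin protein of oligodendrocytes, is itself on that marker list. MPNST library 6 went against this, with 1.18 CPM of Klk6 at 5.02 CPM of the markers. The part of central glia in the Klk6 difference was not tested.

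**Figure D3:**
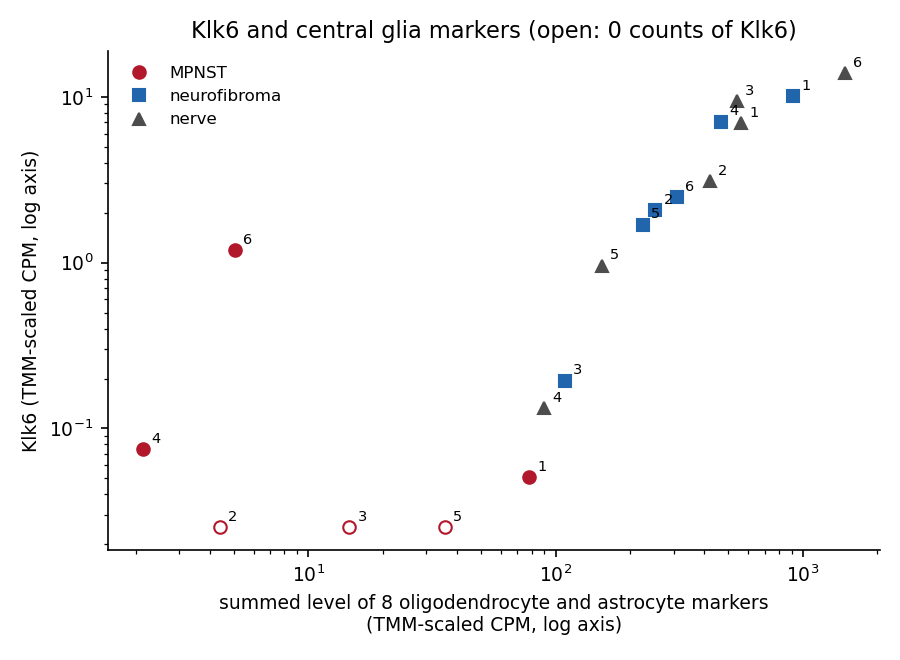
Klk6 against the summed level of 8 oligodendrocyte and astrocyte markers in every library (TMM-scaled CPM, log axes; open points have 0 counts of Klk6 and are drawn at an arbitrary low position). Neurofibroma and nerve libraries lie along one rising band from 0.133 to 13.8 CPM of Klk6, and 5 of 6 MPNST lie at its lower left.

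Of the 5 members that were tested, 2 rose, 1 fell and 2 were not called in MPNST against neurofibroma. There 42.0% of all 16537 genes were called, 25.3% as higher and 16.8% as lower. Against nerve, 3 rose, 1 fell and 1 was not called, where 46.0% of 16384 genes were called, 27.6% as higher and 18.4% as lower. The members' shares of calls, over so few genes, are not read as apart from these. The gene that fell in both was Klk6, which passed the filter largely through the other groups, so nothing is concluded from its calls. The median log2 difference of the 5 was 0.48 and 1.18, beside 0.22 over all genes in both comparisons. Each of the 7 overlapped between MPNST and both other groups, where 23.4% of all genes tested did not overlap between MPNST and neurofibroma and 23.5% between MPNST and nerve. Among all genes, 13.9% were called in neurofibroma against nerve, and nothing is read from the members there.

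**Figure D4:**
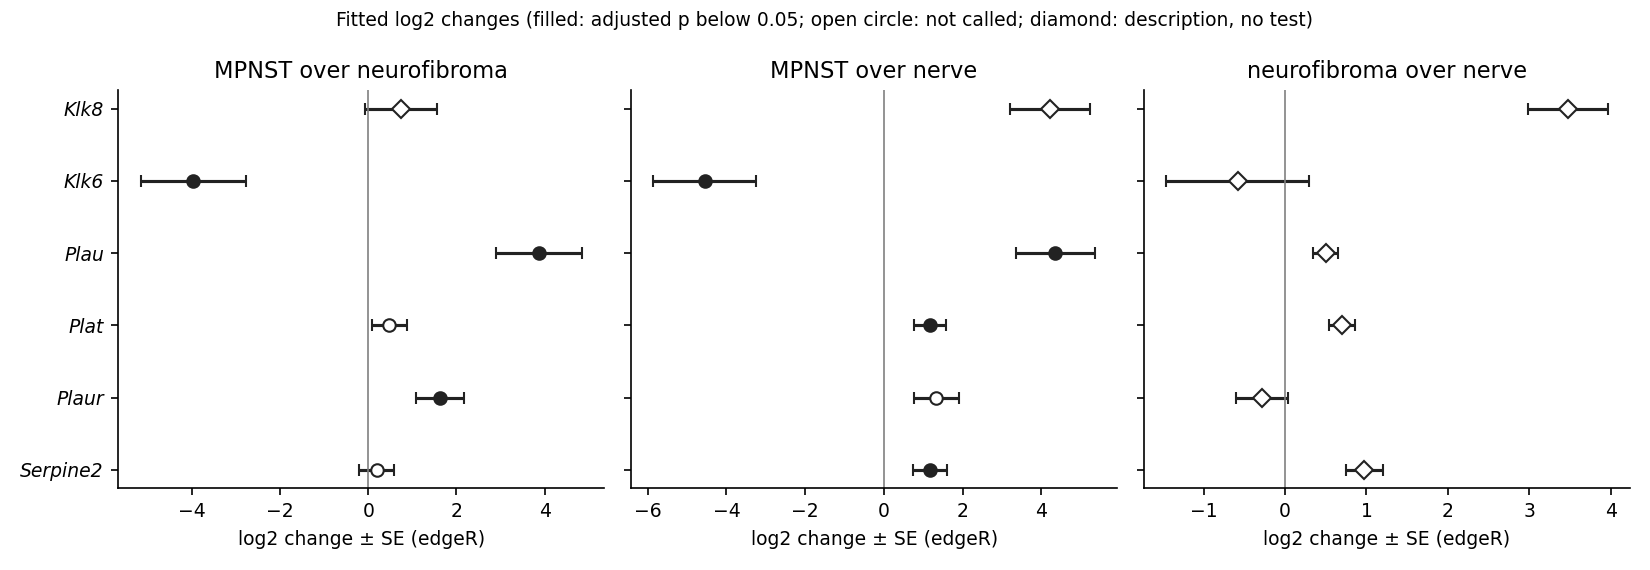
Fitted log2 differences with their SE for the 6 members that passed the filter, in 3 panels: MPNST over neurofibroma, MPNST over nerve, and neurofibroma over nerve (filled circles are called at an adjusted p below 0.05, open circles are not called, diamonds are descriptions with no test). Plau is furthest right among the tested genes in both MPNST panels, at 3.87 and 4.35, and Klk6 is on the left at -3.97 and -4.55.

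Plau, the urokinase-type activator, was the tested member with the largest rise in the MPNST. Klk8, given only as a description, was close to it over nerve, at 4.23 beside 4.35. With limma-voom Klk8 was at 3.04 and Plau at 2.88 there. Plau lay between 4.45 and 562 CPM in MPNST (median 40.2), between 6.65 and 11.9 CPM in neurofibroma (median 9.54) and between 5.48 and 8.94 CPM in nerve (median 6.10). MPNST libraries 1 to 5 were all above every neurofibroma and nerve, and library 6 was below all of them. For library 2 this rested on its TMM factor of 0.406. Before TMM scaling, library 2 was at 5.75 CPM of Plau (136 counts), below every neurofibroma and nerve. Plau rose 14.6-fold in MPNST over neurofibroma, a log2 change of 3.87 ± 0.98 (adjusted p = 0.00811), and 20.5-fold over nerve, 4.35 ± 1.0 (adjusted p = 0.00435; edgeR quasi-likelihood test). MPNST library 4 set much of that size: without it the changes were 2.24 (adjusted p = 0.0129) and 2.73 (adjusted p = 0.00490), without MPNST libraries 2, 3 and 6 together they were 4.72 and 5.20, and the MPNST mean was 40.4 ± 38.9 CPM (SD, n = 5) in place of 127 ± 216 CPM (SD, n = 6). With limma-voom the calls were lost, at adjusted p = 0.107 and 0.0789. Library 4 was also the one with the most Cdkn2a and the fewest Schwann cell markers, and the part of either was not tested. Neurofibroma averaged 9.31 ± 1.70 CPM and nerve 6.55 ± 1.27 CPM (SD, n = 6 each), a log2 difference of 0.50 ± 0.16 as a description.

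Plat, the tissue-type activator, differed less. It lay between 12.5 and 97.5 CPM in MPNST (median 66.3), between 31.9 and 56.6 CPM in neurofibroma (median 46.1) and between 21.7 and 36.6 CPM in nerve (median 25.5). MPNST library 2 was the lowest of all 18 libraries and library 6 was next lowest among the MPNST, while the other 4 were above all nerves. Plat rose in MPNST over nerve by 1.18 ± 0.41 on the log2 scale (adjusted p = 0.0328) and was not called over neurofibroma, at 0.48 ± 0.39 (adjusted p = 0.348; edgeR quasi-likelihood test). The first call was not stable: it was lost without any one of MPNST libraries 1, 3, 4 and 5 or nerve libraries 1 to 5, with adjusted p up to 0.0777. Without MPNST libraries 2 and 6 together, Plat was called over neurofibroma as well, at 0.86 (adjusted p = 0.00207). Neurofibroma averaged 45.2 ± 8.30 CPM and nerve 27.5 ± 5.99 CPM (SD, n = 6 each), a log2 difference of 0.70 ± 0.16 as a description.

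Plaur, the urokinase receptor, followed Plau across the MPNST. It lay between 1.66 and 24.1 CPM in MPNST (median 5.90), between 2.07 and 4.97 CPM in neurofibroma (median 2.64) and between 1.85 and 5.22 CPM in nerve (median 3.64). Library 4 was again highest and library 6 lowest in the MPNST, and the 3 groups overlapped. Before TMM scaling, library 2 was just below library 6, at 1.818 and 1.834 CPM. Plaur rose in MPNST over neurofibroma by 1.62 ± 0.54 on the log2 scale (adjusted p = 0.0297), a call that was lost without MPNST library 4, at 0.99 (adjusted p = 0.0778), and without any one of neurofibroma libraries 1, 2, 3, 4 and 6, at adjusted p = 0.0517 to 0.0652 (edgeR quasi-likelihood test). Without MPNST libraries 2, 3 and 6 together it was 2.21 (adjusted p = 0.00128). Over nerve it was not called, at 1.33 ± 0.57 (adjusted p = 0.0720), but it was without MPNST library 6, at 1.55 (adjusted p = 0.0175); without MPNST library 4 the difference was 0.70 (adjusted p = 0.238). Neurofibroma averaged 2.97 ± 1.10 CPM and nerve 3.59 ± 1.65 CPM (SD, n = 6 each), a log2 difference of -0.28 ± 0.32 as a description.

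Serpine2, the inhibitor, overlapped between the tumours and had its lowest median in nerve. It lay between 42.7 and 366 CPM in MPNST (median 241), between 145 and 262 CPM in neurofibroma (median 221) and between 66.7 and 168 CPM in nerve (median 106). MPNST library 2 was below all others, libraries 1, 3 and 5 were above all others, and nerve library 6 reached into the neurofibroma range. The difference between MPNST and neurofibroma was 0.19 ± 0.40 on the log2 scale and was not called (adjusted p = 0.719; edgeR quasi-likelihood test), which does not show that they were alike. Serpine2 rose in MPNST over nerve by 1.17 ± 0.43 (adjusted p = 0.0421). That call was lost without any one of MPNST libraries 1, 3 and 5, at 0.998 to 1.03 (adjusted p = 0.0868 to 0.103), or of nerve libraries 1 to 5, at adjusted p = 0.0696 to 0.0902. Neurofibroma averaged 214 ± 45.4 CPM and nerve 107 ± 37.1 CPM (SD, n = 6 each), a log2 difference of 0.97 ± 0.23 as a description.

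The 7 genes thus ranked the MPNST libraries in different ways. Klk8 and Klk10 were highest in libraries 1 and 3, Serpine2 in libraries 1 and 5, Plau and Plaur in library 4, and Klk6 in library 6. The summed macrophage and fibroblast markers were higher in most MPNST than in the other groups. In MPNST over neurofibroma, 8 of 8 macrophage and 4 of 8 fibroblast markers were called higher, where 25.3% of all genes were. The other 4 fibroblast markers were not called. Of these, Dcn and Lum averaged 936 and 203 CPM in MPNST, below 1079 and 280 CPM in neurofibroma. The summed level of 8 macrophage markers was 187 to 3046 CPM in MPNST, 135 to 317 CPM in neurofibroma and 41.2 to 205 CPM in nerve. All 8 macrophage and all 8 fibroblast markers were detected in each group. Library 6 of the MPNST was lowest for both sums, and lowest for Plau and Plaur. For fibroblast markers and Plaur this rested on the TMM factor of library 2. Before TMM scaling, fibroblast markers held 0.0578% of counts in library 2 and 0.0777% in library 6. Plaur was then at 1.818 CPM in library 2 and 1.834 CPM in library 6. The part of these cells in the Plau, Plaur and Serpine2 differences was not tested.

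The genes whose patterns were most like each member over the 18 libraries were found by Pearson correlation of log2(CPM + 1) among 14604 genes (14605 for Klk10), as a description in which group differences count. They were Nid2, a basement membrane nidogen, for Klk8 (r = 0.953), followed by Meox2 (0.925) and Spon2 (0.909). For Plau they were Snx9 (0.965), Upp1 (0.958) and Tspan4 (0.957), and Snx9, a membrane-remodelling sorting nexin, also led for Plaur (0.908), followed by Myh9 (0.876) and Aqp1 (0.875). For Plat they were Rasa3 (0.954), Kirrel (0.949) and Sspn (0.934). For Serpine2 they were Cspg4 (0.936), the NG2 proteoglycan, Dennd5a (0.929) and Phldb1 (0.921). Xpnpep2 was the next after Klk9 and Klk8 for Klk10 (0.847). The libraries share group and depth differences, so these values say nothing of shared control.

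Of 19 further genes of the plasminogen system, 10 were tested in MPNST against neurofibroma, and 2 rose, 2 fell and 6 were not called. There 42.0% of all genes were called. The median log2 difference was -0.28, beside 0.22 over all genes. Against nerve, 9 were tested, and 3 rose, 1 fell and 5 were not called, with a median of -0.68. There 46.0% of all genes were called. The 4 calls over neurofibroma were 2 without neurofibroma library 5, and the 4 over nerve were 2 without any one of MPNST libraries 1 and 3 or nerve libraries 1 to 5. Plg, which encodes plasminogen itself, was too low to test, at a mean of 0.0163 CPM in MPNST, 0.0344 CPM in neurofibroma and 0.0908 CPM in nerve; plasminogen is made mainly in the liver.

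Plgrkt, a cell-surface plasminogen receptor, rose by 1.10 ± 0.24 (adjusted p = 0.00426) in MPNST over neurofibroma and by 1.57 ± 0.26 (adjusted p = 0.000630) over nerve, with means of 32.1 ± 12.5 CPM in MPNST, 16.2 ± 1.83 CPM in neurofibroma and 11.6 ± 1.56 CPM in nerve (SD, n = 6 each). Every MPNST was above every nerve. For MPNST library 2 this rested on its TMM factor of 0.406, since before TMM scaling it was at 6.68 CPM, below every nerve. Anxa2, the annexin that binds tissue-type activator and plasminogen, fell in MPNST, with a log2 change of -1.23 ± 0.40 against neurofibroma (adjusted p = 0.0285), a call lost without neurofibroma library 5 (adjusted p = 0.0517). Thbd, or thrombomodulin, rose by 2.31 ± 0.77 over neurofibroma (adjusted p = 0.0299), but by 1.36 without MPNST library 4 (adjusted p = 0.0932), where it stood at 326 CPM, and the call was also lost without any one of neurofibroma libraries 2 to 6, with no filter on low counts (adjusted p = 0.0523) and with limma-voom (1.31, adjusted p = 0.259). Over nerve it rose by 2.21 ± 0.83 (adjusted p = 0.0452), a call lost with limma-voom (adjusted p = 0.252), with RLE scaling (adjusted p = 0.0521), with no filter on low counts (adjusted p = 0.0744), and without any one of MPNST libraries 1, 3, 4 and 5 or nerve libraries 1 to 5; without MPNST library 4 it was 1.26 (adjusted p = 0.156). Without MPNST libraries 2, 3 and 6 together the rises were 3.0 over neurofibroma (adjusted p = 0.000310) and 2.88 over nerve (adjusted p = 0.00219). MPNST libraries 2 and 6, at 12.1 and 4.17 CPM of Thbd, were below every neurofibroma, and the other 4 were above every neurofibroma and nerve. Serpini1, or neuroserpin, a neuronal inhibitor of tissue-type activator, fell, with a log2 change of -2.82 ± 0.93 against neurofibroma (adjusted p = 0.0290) and of -3.33 ± 0.96 against nerve (adjusted p = 0.0140). Every MPNST was below every neurofibroma and nerve for Serpini1; the first call was lost without MPNST library 1 (adjusted p = 0.0563), without library 6 the changes were -3.88 and -4.39, and with limma-voom -4.05 and -4.54. The summed level of 8 sensory neuron markers was 4.48 to 1720 CPM in MPNST, 3087 to 4473 CPM in neurofibroma and 2560 to 5077 CPM in nerve, with the highest MPNST value in library 6; its part in the Serpini1 difference was not tested. Lrp1, the receptor that clears activator and inhibitor complexes, rose by 1.35 ± 0.50 over nerve (adjusted p = 0.0436), a call lost in 9 of 12 fits that each left out 1 library, with adjusted p up to 0.117, and also with RLE scaling (adjusted p = 0.0549), with no filter (adjusted p = 0.0937) and with limma-voom (adjusted p = 0.0800); without MPNST libraries 2, 3 and 6 together the rise was 1.96 (adjusted p = 0.00148). In neurofibroma against nerve, 9 of the 19 genes were tested and 2 were called, where 13.9% of all genes were called. Plgrkt rose by 0.47 ± 0.12 (adjusted p = 0.0248, edgeR quasi-likelihood test). Serpini1 fell by 0.50 ± 0.14 on the log2 scale (adjusted p = 0.0317, same test). Leaving out 1 library took these calls away in 5 and 6 of 12 fits.

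Of 23 other kallikrein genes, 1 was tested in MPNST against neurofibroma, 0 against nerve and 2 in neurofibroma against nerve, since the rest were too low. Klk13, which lies beyond Klk10 in the cluster, was at 0 to 0.558 CPM in MPNST (median 0.0731), at 0.825 to 3.04 CPM in neurofibroma (median 1.36) and at 0.0983 to 0.918 CPM in nerve (median 0.162). All neurofibromas were above all MPNST, and only nerve library 1 reached into the neurofibroma range. Klk13 passed the filter only beside the neurofibromas, with 17 to 49 counts there, 0 to 11 in MPNST and 2 to 19 in nerve. The filter thus largely set the direction of both changes, and nothing is concluded from the calls. Klk13 fell by 3.30 ± 0.91 on the log2 scale in MPNST against neurofibroma (adjusted p = 0.0124, edgeR quasi-likelihood test). In neurofibroma over nerve it rose by 2.35 ± 0.56 (adjusted p = 0.0178, same test), or by 3.12 without nerve library 1. Without MPNST library 1 the change against neurofibroma was -4.59, and with limma-voom -3.99. One fit of all 18 libraries did not call the rise (adjusted p = 0.436). The tissue kallikrein Klk1, chosen after its values were seen, was at 4076 CPM in MPNST library 2 and 39.6 CPM in library 6, and at most 2.62 CPM in each of the other 16 libraries. Library 2 was the one with the salivary gland transcripts, in which Klk1 is known to be abundant. Klk1 and its near-identical Klk1b copies share reads, so their counts are uncertain.

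Of 15 inhibitors and substrates of kallikreins, 14 were tested in each comparison. In MPNST against neurofibroma 5 rose, 7 fell and 2 were not called, where 42.0% of all genes were called. Against nerve 5 rose, 6 fell and 3 were not called, where 46.0% of all genes were called. The medians were -0.10 and -0.16, beside 0.22 over all genes. The list was chosen with earlier results known, and no set test was run. In neurofibroma against nerve 0 of the 14 were called by edgeR, where 13.9% of all genes were called. An unadjusted p below 0.05 was seen in 5 of the 14 and in 5215 of all 16464 genes, and DESeq2 called 2 of the 14.

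The protease-activated receptors, which proteases switch on by cleavage, moved in different directions. F2r and F2rl3, chosen after their values were seen, are given first. F2r rose by 1.97 ± 0.70 over neurofibroma (adjusted p = 0.0387) and by 1.97 ± 0.70 over nerve (adjusted p = 0.0364, edgeR quasi-likelihood test). F2rl3 was not called over either group. F2rl1, which encodes PAR2, lay between 0.190 and 44.4 CPM in MPNST (median 14.7), between 0.388 and 1.58 CPM in neurofibroma (median 0.745) and between 0.465 and 1.92 CPM in nerve (median 1.03). MPNST libraries 1 to 5 were above every neurofibroma and nerve, and library 6 was below all of them, as for Plau. It rose by 4.66 ± 0.92 over neurofibroma (adjusted p = 0.00212) and by 4.14 ± 0.90 over nerve (adjusted p = 0.00327; edgeR quasi-likelihood test), but limma-voom did not call it, at 3.48 (adjusted p = 0.0702) and 2.98 (adjusted p = 0.107). F2rl2, which encodes PAR3, averaged 1.38 ± 0.984 CPM in MPNST, 50.1 ± 5.82 CPM in neurofibroma and 48.9 ± 14.8 CPM in nerve (SD, n = 6 each). Every MPNST was far below every other library. The log2 change of F2rl2 was -5.08 ± 0.48 against neurofibroma (adjusted p = 1.96e-05) and -5.07 ± 0.52 against nerve (adjusted p = 3.12e-05, edgeR quasi-likelihood test). The summed sensory neuron markers were also lower in every MPNST, at most 1720 CPM, than in every other library, at least 2560 CPM. Their part in the F2rl2 difference was not tested.

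Among the substrates, Fn1, or fibronectin, a matrix protein that plasmin also cleaves, averaged 938 ± 770 CPM in MPNST, 126 ± 60.1 CPM in neurofibroma and 57.7 ± 75.4 CPM in nerve (SD, n = 6 each). It rose by 3.01 ± 0.59 over neurofibroma (adjusted p = 0.00213) and by 4.11 ± 0.89 over nerve (adjusted p = 0.00309), the second being 5.17 without nerve library 6. Mbp, or myelin basic protein, a KLK6 substrate made by Schwann cells and oligodendrocytes, lay between 5.37 and 424 CPM in MPNST (median 25.2), between 3462 and 6443 CPM in neurofibroma (median 5296) and between 1732 and 5166 CPM in nerve (median 2982). It fell, with a log2 change of -5.71 ± 1.03 against neurofibroma (adjusted p = 0.00132) and of -5.05 ± 1.02 against nerve (adjusted p = 0.00213), or of -7.41 and -6.77 without MPNST library 1, -7.11 and -6.42 with limma-voom, and -5.02 and -4.38 without MPNST libraries 2, 3 and 6. Ephb2, an ephrin receptor that KLK8 cleaves in mouse brain, rose by 2.67 ± 0.60 over nerve (adjusted p = 0.00395), with 29.2 ± 19.8 CPM in MPNST and 4.86 ± 2.47 CPM in nerve (SD, n = 6 each). MPNST libraries 2 and 4 lay inside the nerve range for Ephb2.

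Among the inhibitors, Serpinb6a, a mouse serpin related to the human inhibitor of KLK8, fell, with a log2 change of -1.41 ± 0.31 against neurofibroma (adjusted p = 0.00377) and of -1.45 ± 0.32 against nerve (adjusted p = 0.00382). It averaged 125 ± 61.8 CPM in MPNST, 366 ± 43.7 CPM in neurofibroma and 371 ± 71.2 CPM in nerve (SD, n = 6 each), and every MPNST was below every other library. Spint2, a Kunitz-type inhibitor of trypsin-like proteases found in epithelia, rose by 5.67 ± 1.5 over neurofibroma (adjusted p = 0.0102), but its 614 CPM in MPNST library 2 made most of this. Without that library the rise was 2.58 (adjusted p = 0.0210), without neurofibroma library 3 it was 6.59, and limma-voom did not call it (3.12, adjusted p = 0.0969). The summed level of 8 epithelial markers was 1362 CPM in MPNST library 2 and 6.29 to 230 CPM in the other MPNST. It was 199 to 222 CPM in neurofibroma and 123 to 220 CPM in nerve. Nearly all of the sum in those 2 groups was Cdh1, at means of 202 and 175 CPM. Each other marker averaged at most 2.34 CPM there. The part of epithelium in the Spint2 difference was not tested.

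**Figure D5:**
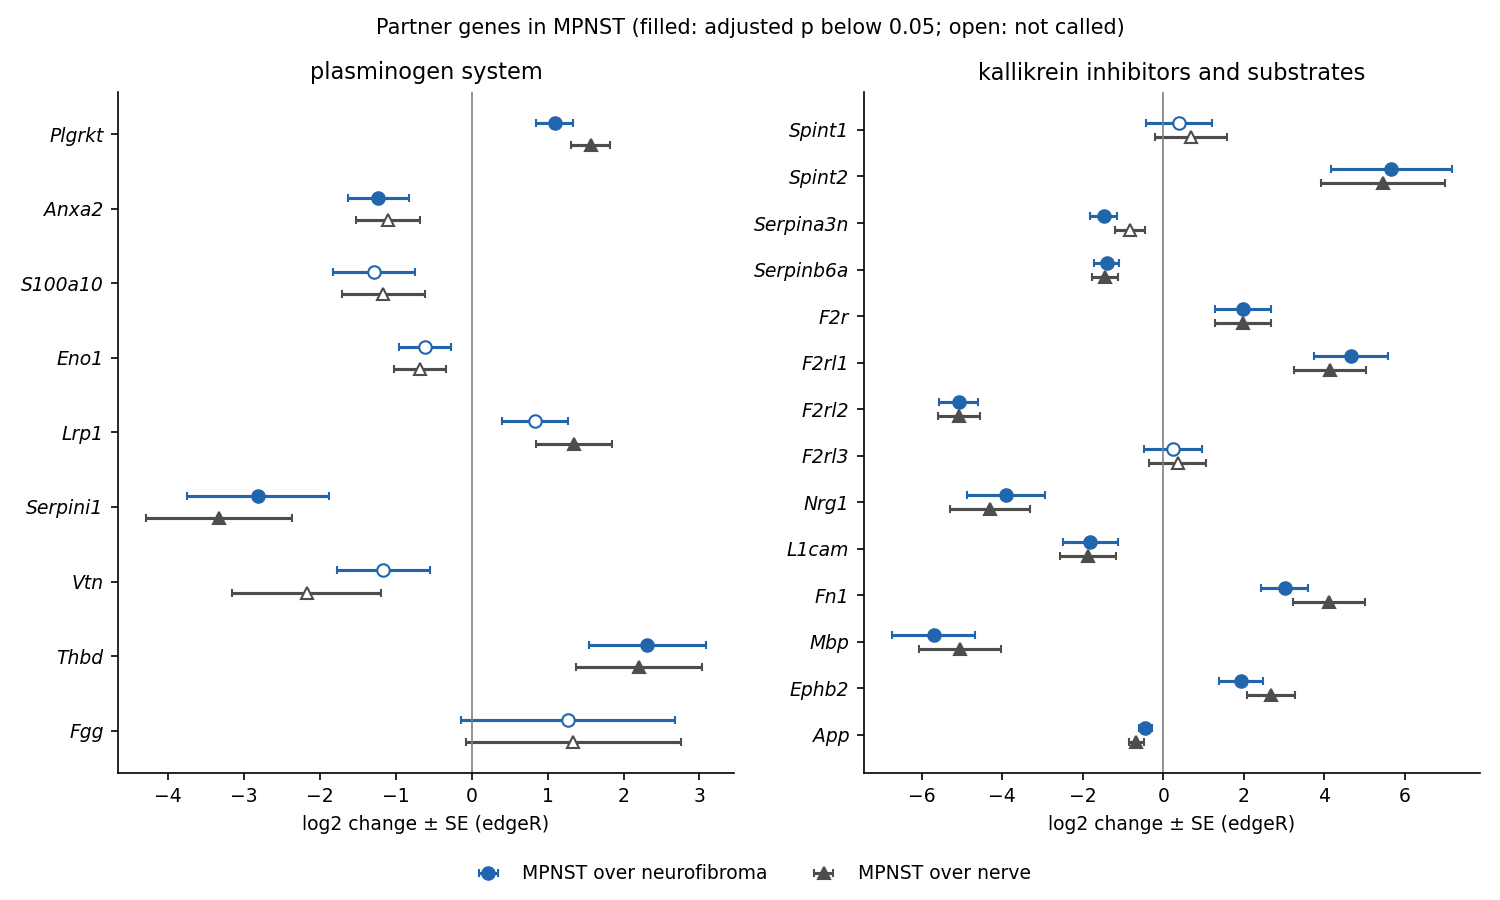
Fitted log2 differences with their SE (TMM-scaled edgeR fits) for the genes of the plasminogen system list (left) and of the list of kallikrein inhibitors and substrates (right) that were tested in both comparisons. Circles are MPNST over neurofibroma and triangles MPNST over nerve, filled where the adjusted p is below 0.05. Plgrkt, Thbd, Fn1 and F2rl1 lie to the right in both, and Serpini1, F2rl2, Mbp and Serpinb6a to the left in both.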

How the data were processed

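RNA was measured in 18 mouse libraries made with a stranded poly(A) kit, per the labels' protocols. The authors deposited one gene-level table of estimated counts, not normalized. GRCm39, Salmon 1.4.0, DESeq2 and FastQC are named in the list of builds and tools, per the submitters' processing notes. For the annotation, the settings and the counting strand, the steps are not given in the sources used. Expected counts were rounded to whole numbers; 0 rows lacked a gene name and 0 columns lacked a sample. Groups came from the labels. Within a group, counts of any 2 libraries differed by a chi-square of at least 17.2 per degree of freedom, so no library is a duplicate. Libraries have no stated molecular identifiers, so depth limits cover counting error only.

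The members, gene lists and tests were chosen with earlier results of these data known; an item of the plasminogen system list is not reported here and was left out of its counts. Each pair of groups was fitted by the two-sided quasi-likelihood test of edgeR 4.0.16 under R 4.3.3 after filterByExpr and TMM scaling, with Benjamini-Hochberg adjustment over all genes tested and calls at an adjusted p below 0.05; SE was the absolute log2 change divided by the square root of F. The fit was tested on simulated counts. Levels in CPM were scaled by TMM factors over the 18 libraries. Named were the 7 members, up to 3 called genes per direction of each list with the smallest p and a mean of at least 1 CPM in 1 group, and the 3 genes most like each member. Alternatives were RLE and upper quartile scaling, no filter or at least 1 CPM in 6 libraries, DESeq2 1.42.0, limma-voom (limma 3.58.1), a fit of all 18 libraries, leaving out each library, and leaving out libraries with transcripts of other tissues.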

Additional observations from a re-analysis of the deposited data

Results flagged for a closer look

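In each of 21 sets of 6 values, 7 members in 3 groups, the gap of the highest or lowest library to its neighbour was set against the range of the set, and 3 stood out. Where values are normally distributed, chance alone marks about 1 in 20 such sets. The values here were CPM and not their logarithms, so that rate may not hold. Klk6 was at 1.18 CPM in MPNST library 6, and the next highest MPNST library was at 0.0751 CPM. Plau was at 562 CPM in MPNST library 4, and the next highest was at 103 CPM. Plaur was at 24.1 CPM in MPNST library 4, and the next highest was at 8.82 CPM.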

How the results depend on the processing

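No paired analysis was possible because the labels give no replicate numbers and the numbers used here only name libraries. Log2 differences are given for single genes, and the cause of each move was not tested unless stated. In MPNST over neurofibroma, dropping the filter on low counts ended the call of Plaur (1.51, adjusted p = 0.0665), and limma-voom ended those of Plau (2.42) and Plaur (1.31) and turned Serpine2, which was not called, to -0.0502. Plat became called without MPNST libraries 2 and 6 (0.86) and without 2, 3 and 6 (0.98). In MPNST over nerve, Serpine2 lost its call with RLE scaling (1.09), with no filter (1.04) and with limma-voom (0.97), Plat with no filter (1.05) and with limma-voom (0.97), and Plau with limma-voom (2.88). Plaur became called with DESeq2 (1.24), in one fit of all 18 libraries (1.29), without MPNST libraries 2 and 6 (1.72) and without 2, 3 and 6 (1.91). Leaving out 1 library at a time gave 0.99 to 1.84 for Plaur over neurofibroma, 0.70 to 1.55 for Plaur over nerve, 0.997 to 1.36 for Plat over nerve and 0.998 to 1.35 for Serpine2 over nerve. The calls of Klk6 over both groups held in every setting that gave a value (at least 1 CPM in 6 libraries left Klk6 out against nerve), and those of Plau in every one except limma-voom. Klk6 passed the main filter largely through the other groups, so nothing is concluded from its calls.

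Among all genes, 11247 were called in MPNST over neurofibroma without libraries 2, 3 and 6, against 6948 with all. In neurofibroma over nerve, 2295 were called, against 1438 with no filter, 3509 with DESeq2, 2 in one fit of all 18 libraries, whose shared estimate of spread takes in the MPNST, and 1147 (without neurofibroma library 4) to 3817 (without nerve library 6) with 1 library left out. The calls in MPNST over neurofibroma were higher for 60.1% and, with limma-voom, for 42.8%; over nerve these shares were 60.1% and 45.2%. The median log2 difference of all genes was 0.22 in both comparisons and, with limma-voom, -0.01 and 0.01. Counts of called plasminogen system genes in MPNST were 4 over each group, 7 over neurofibroma and 7 over nerve without libraries 2 and 6 or 2, 3 and 6, 7 over nerve in the fit of 18, and 2 to 6 over either with 1 library left out. In neurofibroma over nerve the count was 2, against 0 with no filter and in the fit of 18, and 0 to 3 with 1 library left out. The other kallikreins called in MPNST over neurofibroma were 1, against 5 with no filter, 0 with at least 1 CPM in 6 libraries, 2 in the fit of 18 and without libraries 2 and 6, 3 without 2, 3 and 6, and 1 to 2 with 1 library left out. Over nerve the count was 0, against 4 with no filter, 1 in the fit of 18, 1 without libraries 2 and 6 or 2, 3 and 6, and 0 to 1 with 1 library left out. In neurofibroma over nerve it was 1, against 0 with at least 1 CPM in 6 libraries and 0 in the fit of 18. Kallikrein inhibitors and substrates called in neurofibroma over nerve were 0, against 2 with DESeq2, 3 without nerve library 6 and neurofibroma library 1, and 0 to 3 with 1 library left out. In the MPNST comparisons leaving out nerve library 6 or neurofibroma library 1 is one of the fits that left out 1 library. Depth limited Klk10, with at most 34 counts in any library.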
